A study of Mus musculus with 32 samples.

Results

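N-acetylaspartate (NAA) and monocarboxylate transport are routes by which brain cells make, move and release acetate. Of 56415 genes in the annotated gene count table, 8 genes of these routes were followed by symbol. They are Nat8l, which encodes the enzyme that makes NAA; Aspa, aspartoacylase, which splits it; Slc13a3, a sodium-coupled dicarboxylate carrier that takes NAA up; Rimkla and Rimklb, whose enzymes join NAA to glutamate as N-acetylaspartylglutamate (NAAG); Folh1, the peptidase that cleaves NAAG; and Slc16a1 and Slc16a7, the monocarboxylate transporters MCT1 and MCT2. The rule took genes by name and not by measured value, but it was set with earlier results of these data known. All 8 were detected in all 32 libraries and passed the low-count filter.

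PolyA RNA was sequenced from the dorsal hippocampus and the cerebellar vermis of 16 C57BL/6J mice, 1 library per region and mouse. The mice were wild-type (WT) or ACSS2 knockout (KO), and ACSS2 is the enzyme that turns acetate into acetyl-CoA. Their dams had been housed with studs for 5 nights and then injected intraperitoneally 1 time a day until birth, either with 3 g/kg ethanol as a 20% (v/v) solution (chronic prenatal alcohol exposure, cPAE) or with saline (cPSE). Pups stayed with the dam until day 21, and tissue was taken at postnatal day 40 to 50. In each region this gave 4 groups of 4 mice, namely saline-exposed WT, ethanol-exposed WT, saline-exposed KO and ethanol-exposed KO. Each group held 2 males (M1, M3) and 2 females (F1, F3), and litter was not given in the sources used here.

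As background, NAA is made mainly in neurons from aspartate and acetyl-CoA, and is taken up and split by oligodendrocytes, where its acetate can serve myelin lipid synthesis. MCT1 carries lactate, pyruvate, ketone bodies and acetate and is known from brain endothelium and glia, while MCT2 is known mainly from neurons. ACSS2 acts on free acetate and so stands downstream of both routes. Expression in bulk tissue cannot tell fewer cells of a type from less RNA per cell.

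Total counts ran from 54092519 to 96664509 in the hippocampal and from 23085928 to 73803508 in the vermis libraries, the lowest being ethanol-exposed KO vermis F3. Acss2 itself was at 51.0 to 66.7 CPM (counts scaled to a common library size with TMM factors) in all WT and 10.6 to 19.8 CPM in all KO libraries. Purkinje and granule neuron markers were high in vermis and pyramidal and dentate markers in hippocampus. A pair of ethanol-exposed KO vermis libraries stood apart. Their summed Purkinje neuron markers were 2370 CPM in F1 and 4937 CPM in M3, against 6188 to 8362 CPM in the other 14 vermis libraries, and F1 also held 13370 CPM of myelin markers (others 4061 to 6857) and 22930 CPM of haemoglobin and erythroid markers (others 256 to 4475). The main results that use this group are therefore also given without them, except for correlations between the regions. Choroid plexus markers summed to 181 to 5210 CPM across the hippocampal libraries.

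The promoters of Slc13a3 and Slc16a1 are shown because these are the members that passed the test for genotype below. Each run holds bases −250 to −51 before the RefSeq start (RefSeq, GRCm38.p6, a different build from the GRCm39 of the counts), and capitals mark motif matches. The first lies on the minus strand at chr2:165473248-165473447 and the second on the plus strand at chr3:104638414-104638613.
Slc13a3: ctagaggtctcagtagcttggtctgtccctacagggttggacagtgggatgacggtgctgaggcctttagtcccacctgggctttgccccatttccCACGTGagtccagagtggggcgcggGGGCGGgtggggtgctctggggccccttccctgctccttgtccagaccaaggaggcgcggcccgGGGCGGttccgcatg
Slc16a1: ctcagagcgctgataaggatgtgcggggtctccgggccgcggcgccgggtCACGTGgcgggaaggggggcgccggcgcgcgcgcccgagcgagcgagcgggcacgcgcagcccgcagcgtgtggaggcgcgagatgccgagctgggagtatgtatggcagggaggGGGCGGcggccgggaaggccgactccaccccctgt
Both strands were searched for the GC box, spelled GGGCGG, the CCAAT box, spelled CCAAT, the TATA box, spelled TATAAA, the E-box, spelled CACGTG, and the cAMP response element, spelled TGACGTCA. The Slc13a3 window held GGGCGG 2 times, starting at −129 and −65, and CACGTG 1 time, at −154. The Slc16a1 window held GGGCGG at −85 and CACGTG at −200, 1 time each. Of 32851 promoter windows of this length in the table, 24.6% held GGGCGG and 4.34% held CACGTG. None of the other 3 motifs, found in 28.4%, 9.14% and 0.828% of windows in the order named, matched in either window. Guanine and cytosine made up 66% of the Slc13a3 and 76% of the Slc16a1 window. The 50 bases that follow the RefSeq start were found in a GENCODE M21 transcript of Slc13a3 but not of Slc16a1.

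Across the regions, Nat8l had by far the most RNA per kilobase of exon and Folh1 the least in hippocampus and vermis alike. Nat8l had a mean of 46.5 ± 3.62 CPM per kilobase in hippocampus and 52.9 ± 9.64 in vermis (SD, n = 16 libraries in each case here). Slc16a1 came next with 8.83 ± 1.22 in hippocampus and 9.86 ± 1.05 in vermis. Rimklb was at 6.89 ± 0.501 and 5.89 ± 0.484 CPM per kilobase in hippocampus and vermis.

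The lower part of the order differed by region. In hippocampus Slc16a7 followed at 4.84 ± 0.589 CPM per kilobase, then Aspa at 3.96 ± 0.931, Rimkla at 3.47 ± 0.549, Slc13a3 at 2.04 ± 0.256 and Folh1 at 1.94 ± 0.329. In vermis Rimkla was at 5.6 ± 1.41 CPM per kilobase, Slc13a3 at 4.63 ± 0.490, Slc16a7 at 2.32 ± 0.260, Aspa at 2.15 ± 0.776 and Folh1 at 1.98 ± 0.421. Neighbours in the order whose ranges of mean ± SD met were Slc16a7 with Aspa, Aspa with Rimkla and Slc13a3 with Folh1 in hippocampus, and Rimklb with Rimkla, Rimkla with Slc13a3, Slc16a7 with Aspa and Aspa with Folh1 in vermis. The length is that of all annotated exons merged. For Aspa it is 5954 bases, while its longest protein-coding model has 1746, which would put it at 13.5 CPM per kilobase in hippocampus and 7.32 in vermis. Its place in the order therefore rests on the length chosen. The same holds for Slc13a3, whose longest protein-coding model has 3524 bases in place of 5215. By such models Slc13a3 would be at 6.84 CPM per kilobase in vermis, above Rimkla at 5.69. In hippocampus it would be at 3.02, against 1.995 for Folh1.

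**Figure D1:**
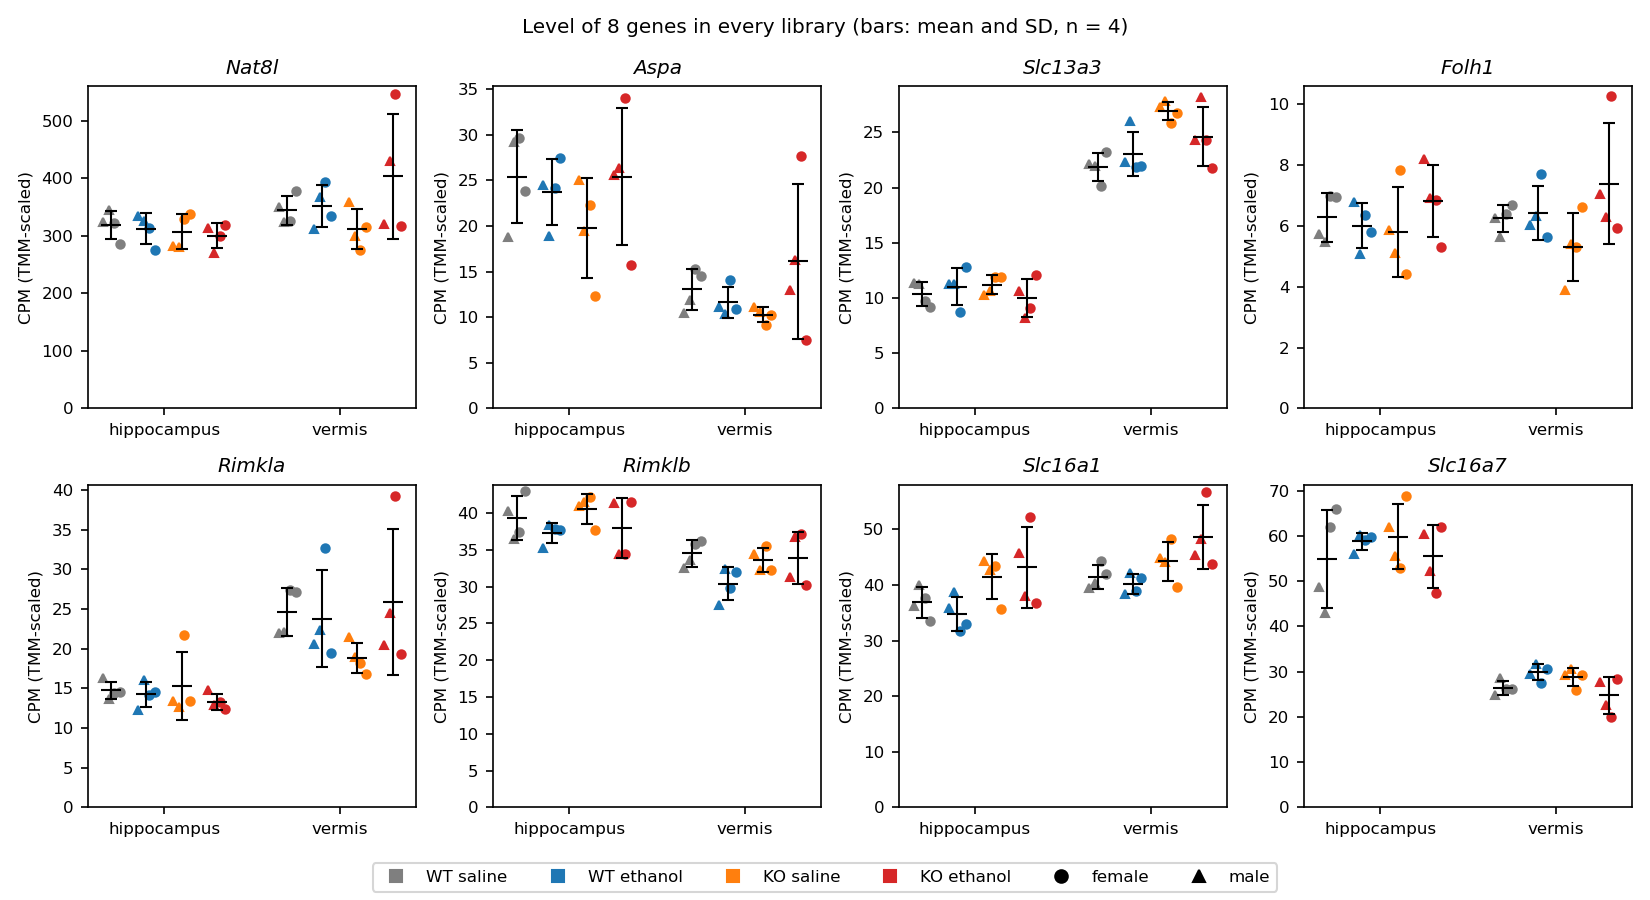
TMM-scaled CPM (y axis, from 0) of each of the 8 genes in every hippocampal and vermis library, coloured by mouse group, with circles for females and triangles for males; bars give the mean and SD of 4 libraries. Slc13a3 and Slc16a7 separate the regions completely, and ethanol-exposed KO vermis F1 is the highest vermis library for Nat8l (547 CPM), Aspa (27.7), Folh1 (10.3), Rimkla (39.2), Rimklb (37.2) and Slc16a1 (56.7).

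Reads were also counted per transcript model, with a read counted for every model it overlaps, so that shares do not add up. For Slc16a7 the long model 206 of 10981 bases took 96.4% ± 0.593 of the gene's count in hippocampus and 95.8% ± 1.23 in vermis (SD, n = 16). Model 201 of 2419 bases took 26.5% ± 1.25 and 25.5% ± 1.79, so most MCT2 reads lay in sequence that model 201 does not hold. A retained-intron model of Aspa, 202, took 46.6% ± 2.38 of its count in hippocampus and 45.8% ± 3.01 in vermis, and the coding model 201 took 88.4% ± 1.38 and 90.4% ± 2.97. Slc16a1 has 1 model. In GENCODE M21 exons of Rimkla overlap those of Zmynd12 on the other strand (2 to 47 counts) and exons of Slc16a7 those of Gm47862 (0 to 10 counts). Whether counting used strand is not given in the sources used here.

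The sharpest differences among the 8 genes lay between the regions of the same mouse. In a fit over all 32 libraries with mouse as a block, 7 of 8 differed between vermis and hippocampus (edgeR quasi-likelihood F-test, Benjamini-Hochberg adjusted p under 0.05 over 24458 genes). Of all genes tested 72.6% did so, so this count is near the background. Members higher in vermis numbered 4 (34.6% of all genes were higher) and members lower numbered 3 (38% of all genes were lower). The median difference was 0.09 log2 over the 8 genes and −0.03 over all genes. Slc13a3 and Slc16a7, 2 of the 8, had no overlap between the libraries of the 2 regions, as did 19.2% of all genes.

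Slc13a3, the NAA uptake carrier, ranged from 8.15 to 12.8 CPM with a median of 11 in hippocampus, and from 20.2 to 28.2 CPM with a median of 23.7 in vermis. It was higher in vermis in 16 of 16 mice, by 1.72-fold to 3.46-fold. The fitted difference was 1.18 ± 0.06 log2 (SE; adjusted p = 8.82e-12).

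Slc16a7, MCT2, went the other way. It ranged from 43.0 to 68.8 CPM (median 59.5) in hippocampus and from 20.0 to 31.7 CPM (median 28.2) in vermis, and the ratio of vermis to hippocampus was 0.397 to 0.665 in the 16 mice. The difference was −1.06 ± 0.05 log2 (adjusted p = 9.59e-13).

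Aspa, the enzyme that frees acetate from NAA, was lower in vermis in 16 of 16 mice, with ratios from 0.397 to 0.83. It ran from 12.3 to 34.0 CPM (median 24.3) in hippocampus and from 7.53 to 27.7 CPM (median 11.1) in vermis, where F1 of ethanol-exposed KO was the one library above 16.3. The difference was −0.91 ± 0.08 log2 (adjusted p = 1.38e-08). Of 13 oligodendrocyte and myelin markers 12 were also lower in vermis, with a median of −0.92 log2, and their part in the Aspa difference was not tested.

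The NAAG synthetases differed in opposite directions. Rimkla was higher in vermis in 15 of 16 mice (0.67 ± 0.09 log2, adjusted p = 4.82e-06), from a median of 14.0 CPM to one of 21.7 CPM. Rimklb was lower in 14 of 16 mice (−0.23 ± 0.04 log2, adjusted p = 8.08e-05), from a median of 38.1 CPM to one of 32.4 CPM. Folh1, which cleaves their product, had ratios on either side of 1, with 8 mice higher and 8 lower, and did not pass (0.01 ± 0.08 log2, adjusted p = 0.886).

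Slc16a1, MCT1, was slightly higher in vermis (0.16 ± 0.03 log2, adjusted p = 0.000229), in 15 of 16 mice, with ratios of 0.995 to 1.27. Nat8l was higher in 11 of 16 mice (0.17 ± 0.07 log2, adjusted p = 0.028), and that call was lost without the mice ethanol-exposed KO F1 and M3 (0.07 log2, adjusted p = 0.226) and also without saline-exposed KO M1 (adjusted p = 0.0643) or M3 (adjusted p = 0.0512). The other 6 differences were called with those 2 mice left out.

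**Figure D2:**
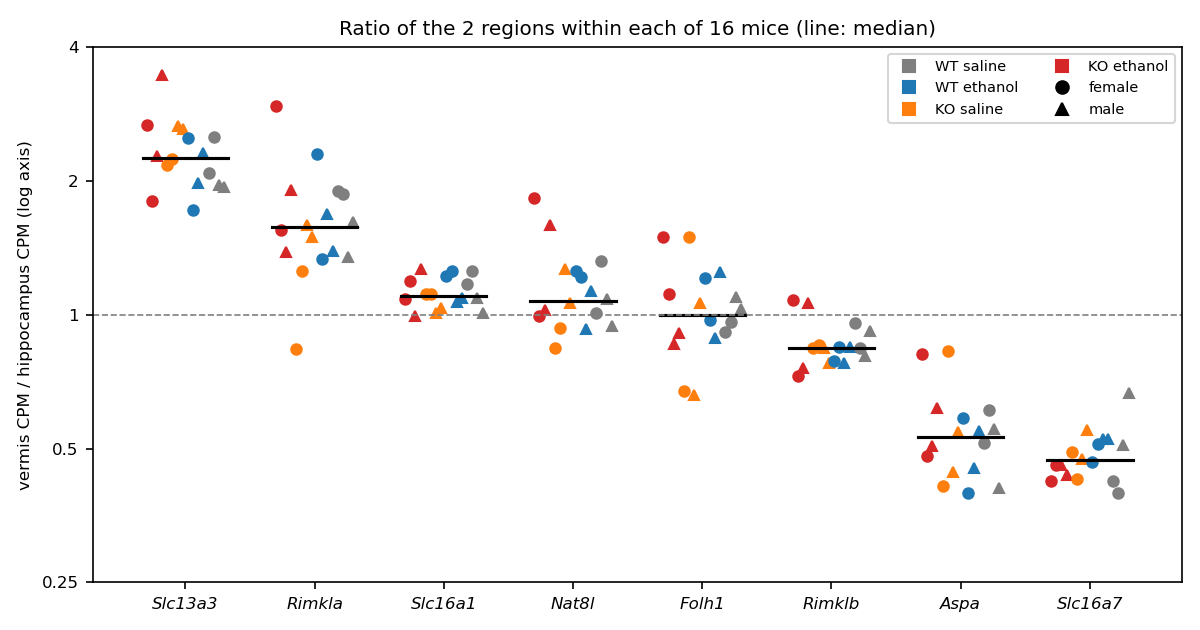
Ratio of vermis CPM to hippocampal CPM within each of the 16 mice (y axis, log scale) for the 8 genes; lines are medians, colours the mouse groups, circles females and triangles males. All 16 mice lie above 1 for Slc13a3 (median 2.26) and below 1 for Aspa (0.53) and Slc16a7 (0.47), and Folh1 lies evenly about 1.

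Other genes of these routes were compared between the regions against the same background, in which 72.6% of all genes differed. Of 13 NAA and NAAG partner genes, 3 were higher and 3 lower in vermis, a share below that of all genes. Grm3, the glutamate receptor that NAAG activates, was lower by −0.92 ± 0.06 log2, and Naaladl2, a relative of Folh1 by sequence, was higher by 0.80 ± 0.11 log2. Of 13 tested monocarboxylate transport and lactate genes, 7 were higher and 4 lower, near the share of all genes. Slc16a11, a less studied member of the transporter family, was higher by 2.24 ± 0.07 log2, the pyruvate carrier subunit Mpc1 by 0.66 ± 0.03 and lactate dehydrogenase B (Ldhb) by 0.62 ± 0.04, while lactate dehydrogenase A (Ldha) was lower by −0.50 ± 0.05. Slc16a8, known from choroid plexus and retinal epithelium, was lower by −5.33 ± 0.74 log2, beside choroid plexus markers of 181 to 5210 CPM in hippocampus and 116 to 407 CPM in vermis, whose part was not tested. Of 10 acetate and acetyl-CoA genes 3 were higher and 5 lower, also near that share, among them Acss1, the mitochondrial relative of ACSS2, by −0.83 ± 0.04 log2.

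Genotype was the factor under which members passed within a region, and they did so in vermis. In saline-exposed mice 1 of 8 members was higher in KO vermis, Slc13a3, against 4.91% of all 22441 genes tested in either direction. In ethanol-exposed mice 1 of 8 was higher, Slc16a1, against 7.53% of all genes. Each count is 1 gene of 8, too few to be read as a result about the members as a group. The median over the 8 members was −0.08 log2 in saline-exposed mice (−0.02 over all genes) and 0.20 log2 in ethanol-exposed mice (0.03 over all genes).

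Slc13a3 was at 22.2, 22.0, 20.2 and 23.2 CPM in saline-exposed WT vermis (M1, M3, F1, F3 in order, as below) and at 27.3, 27.8, 25.9 and 26.7 CPM in saline-exposed KO vermis. The groups did not overlap. The difference was 0.31 ± 0.07 log2, or 1.24-fold (adjusted p = 0.0202). In ethanol-exposed mice Slc13a3 was at 22.3, 26.1, 21.9 and 22.0 CPM in WT and 24.3, 28.2, 24.3 and 21.7 CPM in KO, with overlap, and the genotype difference of 0.12 ± 0.07 log2 did not pass (adjusted p = 0.309; 0.01 log2 without F1 and M3 of ethanol-exposed KO). The interaction of exposure with genotype for Slc13a3 did not pass either (−0.19 ± 0.10 log2, adjusted p = 0.477; −0.29 log2 and 0.501 without F1 and M3).

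The Slc13a3 result has limits of position and of single libraries. Slc13a3 lies on chromosome 2, 9.89 Mb from Acss2 (first listed exons at 165246948 and 155359868 in GRCm39), so the effect of the deletion and of linked sequence that came with the targeted allele cannot be told apart. The adjusted p rose above 0.05 when any of 6 of the 16 vermis libraries was left out (saline-exposed WT M1, M3 or F1, or saline-exposed KO M1, M3 or F3; at most 0.111), while the difference stayed positive. Leptomeningeal fibroblast markers summed to 142 to 155 CPM in saline-exposed WT and to 184 to 224 CPM in saline-exposed KO vermis, with 1 of 11 markers higher and none at 0. Pericyte and smooth muscle markers summed to 203 to 207 CPM in the former and 216 to 226 CPM in the latter (0 of 9 called), endothelial markers to 295 to 325 and 326 to 344 CPM (1 of 9 higher), and blood markers to 334 to 865 and 458 to 4475 CPM (0 of 5 called). Across the 16 vermis libraries Slc13a3 followed the leptomeningeal sum with r = 0.736 (permutation p = 0.0012, adjusted 0.0159 over 224 relations). Spearman rho was 0.691 (permutation p = 0.00377, adjusted 0.0535), and r was 0.667 without ethanol-exposed WT F1 and ethanol-exposed KO M3. Slc13a3 followed the pericyte and smooth muscle sum with r = 0.713 (permutation p = 0.00202, adjusted 0.0205) and rho = 0.739 (p = 0.00145, adjusted 0.0361). There r was 0.739 without ethanol-exposed WT M3 and ethanol-exposed KO F3. These r were 0.753 and 0.706 without F1 and M3 of ethanol-exposed KO. The part of these cells in the result was not tested.

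Slc16a1 was at 38.4, 42.2, 38.9 and 41.3 CPM in ethanol-exposed WT vermis and at 45.5, 48.2, 56.7 and 43.8 CPM in ethanol-exposed KO vermis, again without overlap. The difference was 0.30 ± 0.08 log2, or 1.23-fold (adjusted p = 0.0326). In saline-exposed mice it was at 39.4, 40.3, 44.3 and 42.0 CPM in WT and 44.8, 44.2, 48.3 and 39.7 CPM in KO vermis, with overlap (0.10 ± 0.08 log2, adjusted p = 0.683). The interaction for Slc16a1 did not pass (0.20 ± 0.11 log2, adjusted p = 0.487; 0.07 log2 without F1 and M3 of ethanol-exposed KO).

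The Slc16a1 call rested on few libraries. Without F1 and M3 of ethanol-exposed KO vermis the difference was 0.17 log2 (adjusted p = 0.341), and without F1 alone the adjusted p was 0.107. The call was lost in 11 of the 16 fits that left out 1 library (adjusted p at most 0.125). Without F3 of ethanol-exposed KO, the shallowest library, 22.2% of all genes passed, against 7.53% with it, and 4 members did, namely Slc16a1 (0.34 log2, adjusted p = 0.00734), Aspa (0.74 log2, adjusted p = 0.0119), Rimklb (0.23 log2, adjusted p = 0.0334) and Slc16a7 (−0.36 log2, adjusted p = 0.0151). The group then held M1 and the libraries low in Purkinje markers, F1 and M3. Without F1 and M3 instead, 3.71% of all genes passed, and the differences were −0.15 log2 for Aspa, 0.04 for Rimklb and −0.07 for Slc16a7. In the same comparison 5 of 11 leptomeningeal markers and 2 of 5 blood markers were higher in KO, with no marker of either list at 0; the leptomeningeal sums were 113 to 194 CPM in WT and 167 to 270 CPM in KO, and the blood sums 256 to 1136 CPM in WT and 767 to 22930 CPM in KO. Across the 16 vermis libraries Slc16a1 followed the leptomeningeal sum with r = 0.767 (permutation p = 0.00039, adjusted 0.00728) and rho = 0.779 (p = 0.00062, adjusted 0.0231), and r was 0.733 without ethanol-exposed WT F1 and ethanol-exposed KO M3. It followed the blood sum with r = 0.853 (permutation p = 0.00019, adjusted 0.00532) and rho = 0.697 (p = 0.00326, adjusted 0.0535), and r was 0.579 without ethanol-exposed KO F1 and saline-exposed KO F1. These r were 0.642 and 0.699 without that group's F1 and M3. Slc16a1 was related to other lists too, with r = 0.783 for microglia, −0.787 for granule neuron and −0.725 for Purkinje neuron markers. Without F1 and M3 these were 0.298, −0.229 and 0.137. The part of any of these cells in the difference was not tested.

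The remaining 6 members did not pass for genotype in vermis under either exposure. Rimkla was at 22.0, 22.1, 27.4 and 27.2 CPM in saline-exposed WT and 21.4, 18.9, 18.2 and 16.9 CPM in saline-exposed KO vermis, without overlap, yet its difference did not pass (−0.37 ± 0.20 log2, adjusted p = 0.488). In ethanol-exposed mice the largest uncalled difference was that of Aspa (0.50 ± 0.28 log2, adjusted p = 0.267), followed by −0.25 ± 0.10 for Slc16a7 (adjusted p = 0.127). Without F1 and M3 the value for Aspa was −0.15 log2.

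In hippocampus no member passed for genotype (edgeR; 0 of 8 in saline-exposed mice against 0.00427% of 23394 genes, and 0 of 8 in ethanol-exposed mice against 0.171%). At an unadjusted p under 0.05 the member counts were 0 and 1 (8.85% and 9.92% of all genes), and DESeq2 called 0 members in each. That 1 member was Slc16a1, at 35.9, 38.7, 31.8 and 33 CPM in ethanol-exposed WT and 45.7, 38.0, 52.2 and 36.8 CPM in ethanol-exposed KO hippocampus. The groups overlapped, and the difference of 0.32 ± 0.11 log2 (edgeR adjusted p = 0.304) was as large as that in vermis. The genotype effects on the members were not shown to differ between the regions: of 8 members 0 passed in saline-exposed mice (3.36% of all genes) and 0 in ethanol-exposed mice (2.39% of all genes). The vermis minus hippocampus difference of the genotype effect was 0.19 ± 0.17 log2 for Slc13a3 in saline-exposed mice (adjusted p = 0.753) and −0.03 ± 0.09 log2 for Slc16a1 in ethanol-exposed mice (adjusted p = 0.914; −0.09 log2 without the mice F1 and M3 of ethanol-exposed KO). At an unadjusted p under 0.05 these counts were also 0 and 0 (12.5% and 14% of all genes), as were those of DESeq2.

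**Figure D3:**
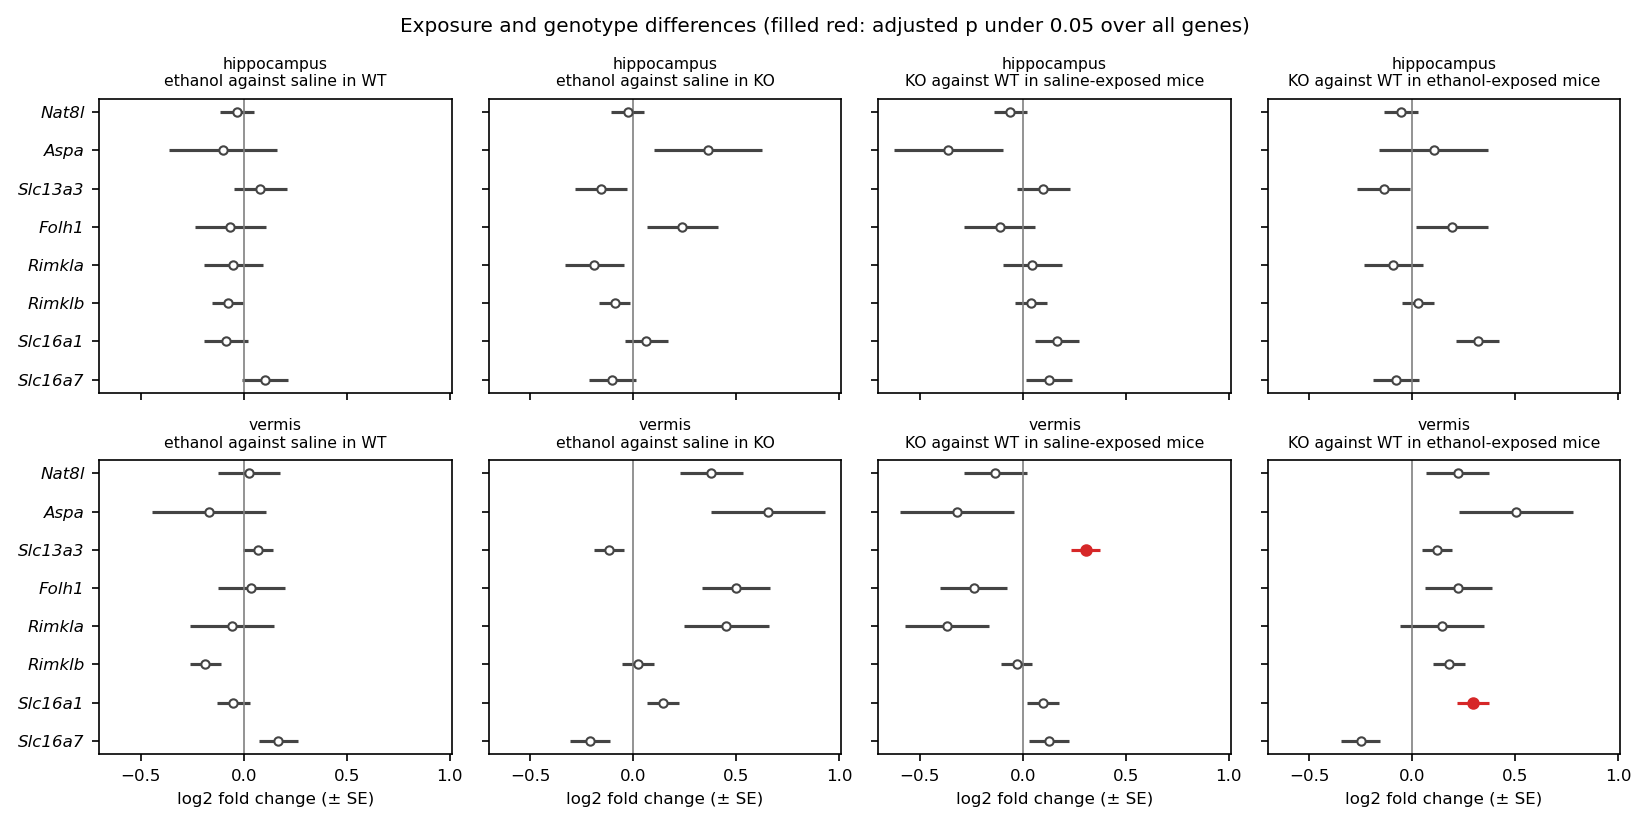
Log2 differences of the 8 genes (x axis, bars are ± SE of the edgeR fit) for exposure within each genotype and genotype within each exposure, in hippocampus (top) and vermis (bottom). The filled red points, with adjusted p under 0.05 over all genes, are Slc13a3 in saline-exposed vermis (0.31) and Slc16a1 in ethanol-exposed vermis (0.30).

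Other genes of the monocarboxylate route passed for genotype in vermis. Of 11 tested monocarboxylate and lactate genes, 4 were higher in saline-exposed KO vermis and none lower, against 4.91% of all genes in either direction. They were the subunits of the mitochondrial pyruvate carrier, Mpc1 (0.42 ± 0.05 log2, adjusted p = 6.42e-05) and Mpc2 (0.35 ± 0.05, adjusted p = 0.000701), Bsg, the chaperone that brings MCT1 to the cell surface (0.26 ± 0.05, adjusted p = 0.00884), and Ldha (0.30 ± 0.07, adjusted p = 0.0208). Mpc1 was at 64.7, 67.4, 69.4 and 63.2 CPM in saline-exposed WT and 84.3, 92.3, 89.4 and 87.0 CPM in saline-exposed KO vermis. In ethanol-exposed mice Mpc1 (0.37 ± 0.05 log2) and Mpc2 (0.40 ± 0.05 log2) were again higher in KO vermis, and these were 2 of 11, against 7.53% of all genes. They were also called, at 0.41 and 0.32 log2, without F1 and M3 of ethanol-exposed KO. The genotype effect differed between vermis and hippocampus in saline-exposed mice for Mpc1 (0.63 ± 0.10 log2, adjusted p = 0.000398) and Mpc2 (0.41 ± 0.10, adjusted p = 0.0312). The Mpc1 value was larger than its 0.42 log2 in saline-exposed vermis, so it does not measure a rise in vermis alone. The hippocampal differences of these genes are not given here. Calls lost with 1 library left out were those of Bsg (without saline-exposed WT M3, adjusted p = 0.0724), of Ldha (without any of 6 libraries, at most 0.117) and of the regional difference of Mpc2 (without any of 7 mice, at most 0.13). The list's median was 0.09 log2 in saline-exposed and 0.20 in ethanol-exposed mice.

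In the acetate and acetyl-CoA list Acss2 was lower in KO in each of the 4 genotype comparisons. The only other call was Acss3, a mitochondrial acyl-CoA synthetase, in ethanol-exposed vermis, at 1.67, 1.52, 1.21 and 1.15 CPM in WT and 2.22, 3.10, 3.60 and 1.10 CPM in KO (0.90 ± 0.26 log2, adjusted p = 0.0462). It was lost without F1 and M3 (0.26 log2, adjusted p = 0.694) and in 14 of the 16 fits that left out 1 library. None of the 12 tested NAA and NAAG partner genes passed for exposure, genotype, interaction or sex in either region, and their median difference lay between −0.04 and 0.12 log2.

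Prenatal ethanol moved no member past the threshold. In WT the count was 0 of 8 in hippocampus, where 0% of all genes passed, and 0 of 8 in vermis, where 0.00446% did. In KO it was 0 of 8 in hippocampus (0.0513% of all genes) and 0 of 8 in vermis (0.0891% of all genes), by the edgeR test. At an unadjusted p under 0.05 the counts were 0, 1, 0 and 5 in the order named, against 10.5%, 5.32%, 9.31% and 13.3% of all genes, and DESeq2 called 0 members in each. In WT hippocampus the largest difference of the 8 was 0.10 log2, for Slc16a7, and in KO hippocampus 0.36 ± 0.26 log2, for Aspa (adjusted p = 0.691).

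The member with an unadjusted p under 0.05 in WT vermis was Rimklb. It was at 32.5, 33.6, 35.8 and 36.2 CPM in saline-exposed and 27.5, 32.4, 29.8 and 32 CPM in ethanol-exposed WT vermis, without overlap, and the difference was −0.19 ± 0.08 log2 (edgeR adjusted p = 0.905).

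In KO vermis the 5 members with an unadjusted p under 0.05 were Folh1 (0.50 ± 0.16 log2, adjusted p = 0.314), Nat8l (0.38 ± 0.15, adjusted p = 0.361), Aspa (0.66 ± 0.28, adjusted p = 0.365), Rimkla (0.45 ± 0.21, adjusted p = 0.371) and Slc16a7 (−0.21 ± 0.10, adjusted p = 0.371). The median of the 8 members was 0.26 log2 against 0.003 over all genes. Nat8l was at 358, 299, 276 and 316 CPM in saline-exposed KO and 321, 430, 547 and 318 CPM in ethanol-exposed KO vermis. Aspa was at 11.1, 10.6, 9.19 and 10.2 CPM and then at 13.0, 16.3, 27.7 and 7.53 CPM. Folh1 was at 3.88, 5.41, 5.30 and 6.63 CPM and then at 7.05, 6.31, 10.3 and 5.92 CPM. In all 3 genes the ethanol-exposed group held F1 as its highest library and overlapped the saline-exposed one, and F3 was its lowest. Without F1 and M3 the differences were 0.32 log2 for Folh1 (adjusted p = 0.871), 0.04 for Nat8l, 0.02 for Aspa, 0.08 for Rimkla and −0.03 for Slc16a7, the last 4 with adjusted p from 0.998 to 1. Without F3 of that group 2.68% of all genes passed, against 0.0891% with it, and 2 members did, Aspa (0.89 log2, adjusted p = 0.0312) and Folh1 (0.62 log2, adjusted p = 0.0478). That fit kept F1 and M3, the libraries low in Purkinje markers, and without those 2 the share of all genes was 0.0551%.

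The exposure by genotype interaction passed for 0 of 8 members in hippocampus (0.175% of all genes) and 0 of 8 in vermis (0.107% of all genes). At an unadjusted p under 0.05 there were 0 and 1 members (9.94% and 11.2% of all genes), and DESeq2 called 0 in each. The 1 member was Slc16a7 in vermis (−0.38 ± 0.14 log2, edgeR adjusted p = 0.362), at 24.8, 28.6, 26.2 and 26.2 CPM in saline-exposed WT, 29.4, 31.7, 27.6 and 30.7 in ethanol-exposed WT, 29.4, 30.6, 26.0 and 29.3 in saline-exposed KO, and 27.8, 22.8, 20.0 and 28.5 in ethanol-exposed KO. Its 2 lowest vermis libraries were F1 and M3 of ethanol-exposed KO, without which the interaction was −0.20 log2 (adjusted p = 0.722). The difference of the exposure effect between the regions passed for 0 of 8 members in WT (0% of all genes) and 0 of 8 in KO (0.00409% of all genes), with 0 and 1 members at an unadjusted p under 0.05 (4.98% and 6.03% of all genes) and 0 by DESeq2. That 1 was Rimkla in KO (0.57 ± 0.25 log2, edgeR adjusted p = 0.82; 0.22 log2 without the mice F1 and M3).

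Males and females did not differ past the threshold in any member. The count was 0 of 8 in hippocampus (0.0769% of all genes) and 0 of 8 in vermis (0.0535% of all genes), with 0 members at an unadjusted p under 0.05 (7.65% and 3.16% of all genes) and 0 by DESeq2 in either region. The largest differences, male minus female, were −0.13 ± 0.08 log2 for Slc16a7 in hippocampus and −0.23 ± 0.12 for Folh1 in vermis (−0.14 without F1 and M3 of ethanol-exposed KO).

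Levels of Slc16a1 and Aspa went together in the 2 regions of a mouse. Over 16 mice the log2 CPM of Slc16a1 in vermis followed that in hippocampus with r = 0.787 (permutation p = 0.00039, adjusted 0.00312 over the 8 members) and rho = 0.776 (p = 0.00074, adjusted 0.00296), and r was 0.617 without ethanol-exposed KO F1 and M1. For Aspa r was 0.692 (p = 0.00452, adjusted 0.0181) and rho 0.791 (p = 0.00039, adjusted 0.00296), and r was 0.711 without saline-exposed KO F3 and ethanol-exposed KO F3. Ethanol-exposed KO F1, the highest mouse for Aspa in both regions, was kept there. Values without ethanol-exposed KO F1 and M3 are not given for these relations. After group means were taken out r was 0.652 for Slc16a1 and 0.656 for Aspa. Over all genes r between the regions had a median of 0.106, and the upper 5% lay above 0.56. The other 6 members had r from −0.388 to 0.46, with adjusted p of 0.19 or more.

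**Figure D4:**
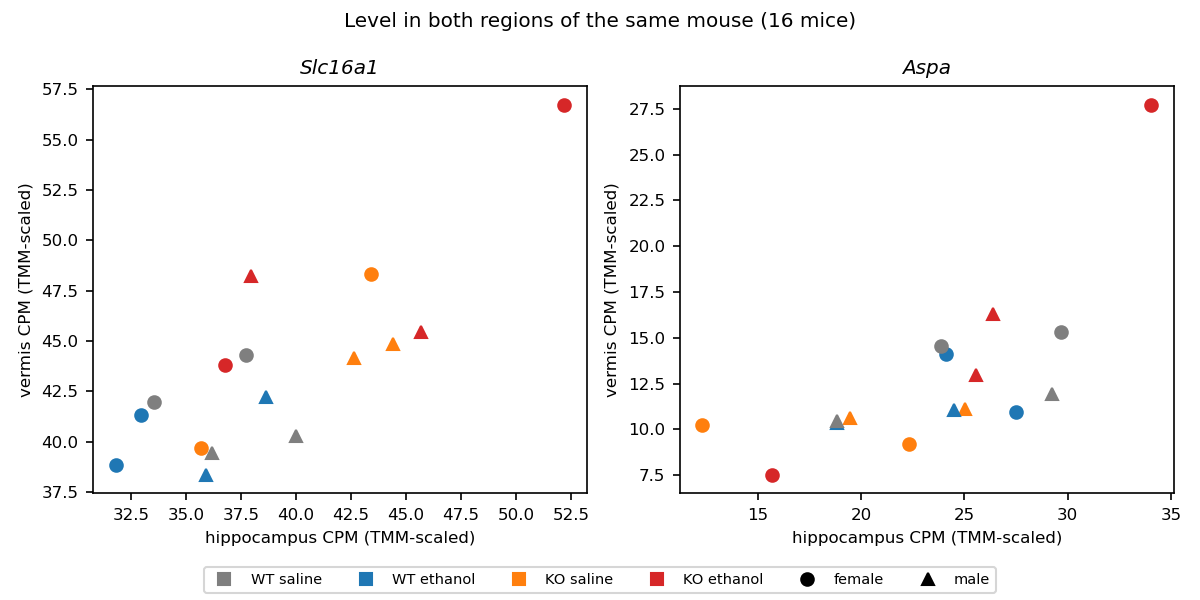
CPM in vermis (y axis) against CPM in hippocampus (x axis) of Slc16a1 and Aspa in each of 16 mice, coloured by mouse group, with circles for females and triangles for males. Ethanol-exposed KO F1 is the highest mouse in both regions for both genes. Without the 2 mice farthest from the hippocampal median r was 0.617 for Slc16a1, where F1 was left out. It was 0.711 for Aspa, where F1 was kept and saline-exposed KO F3 and ethanol-exposed KO F3 were left out.

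Within a region the members were set against the summed markers of 14 cell type lists (224 relations in the 2 regions, adjusted over all of them). By Pearson's r 3 of 112 relations passed in hippocampus, all of Aspa, and 23 of 112 in vermis, where 6 were of Nat8l; by r and rho alike 1 and 8 did. The sums share libraries, and the relations given were picked from these. In hippocampus Aspa followed the summed oligodendrocyte and myelin markers with r = 0.87 (permutation p = 1e-05, the smallest that the permutations can give; adjusted 0.00056) and rho = 0.774 (p = 0.00081, adjusted 0.0259), and r was 0.741 without saline-exposed KO F3 and ethanol-exposed KO F1. In vermis r was 0.87 (p = 9e-05, adjusted 0.00336), rho 0.691 (p = 0.00382, adjusted 0.0535), and r 0.712 without ethanol-exposed KO F1 and ethanol-exposed WT F1 (0.637 without F1 and M3 of ethanol-exposed KO). Rimkla followed the same markers in vermis with r = 0.885 (p = 1e-05, adjusted 0.00056), rho = 0.706 (p = 0.00314, adjusted 0.0535) and r = 0.794 without ethanol-exposed KO F1 and ethanol-exposed WT F1 (0.886 without F1 and M3). By r and rho alike 1 vermis relation of each gene passed, and the myelin one was not it. Against the Purkinje neuron markers in vermis r was −0.872 for Aspa (−0.618 without F1 and M3) and −0.785 for Rimkla (−0.765 without them). The vermis relations of these genes were thus not particular to myelin markers.

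Nat8l, the NAA synthase, ran against the Purkinje neuron markers in vermis, with r = −0.906 (p = 1e-05, adjusted 0.00056), rho = −0.859 (p = 7e-05, adjusted 0.0157) and r = −0.735 without F1 and M3 of ethanol-exposed KO. It followed the general neuron markers there with r = 0.844 (p = 0.00011, adjusted 0.00352) and rho = 0.758 (p = 0.00108, adjusted 0.0302), and r was 0.75 without ethanol-exposed KO F1 and ethanol-exposed WT M3 (0.788 without F1 and M3). It also followed the oligodendrocyte precursor markers with r = 0.905 (p = 3e-05, adjusted 0.00134) and rho = 0.782 (p = 0.00054, adjusted 0.0231), with r = 0.645 without F1 and M3. Slc16a7 followed the Purkinje neuron markers in vermis with r = 0.795 (p = 0.00166, adjusted 0.0196) and rho = 0.397 (p = 0.13, adjusted 0.356). Its r was 0.121 without the same 2 libraries, so that relation rests on them.

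**Figure D5:**
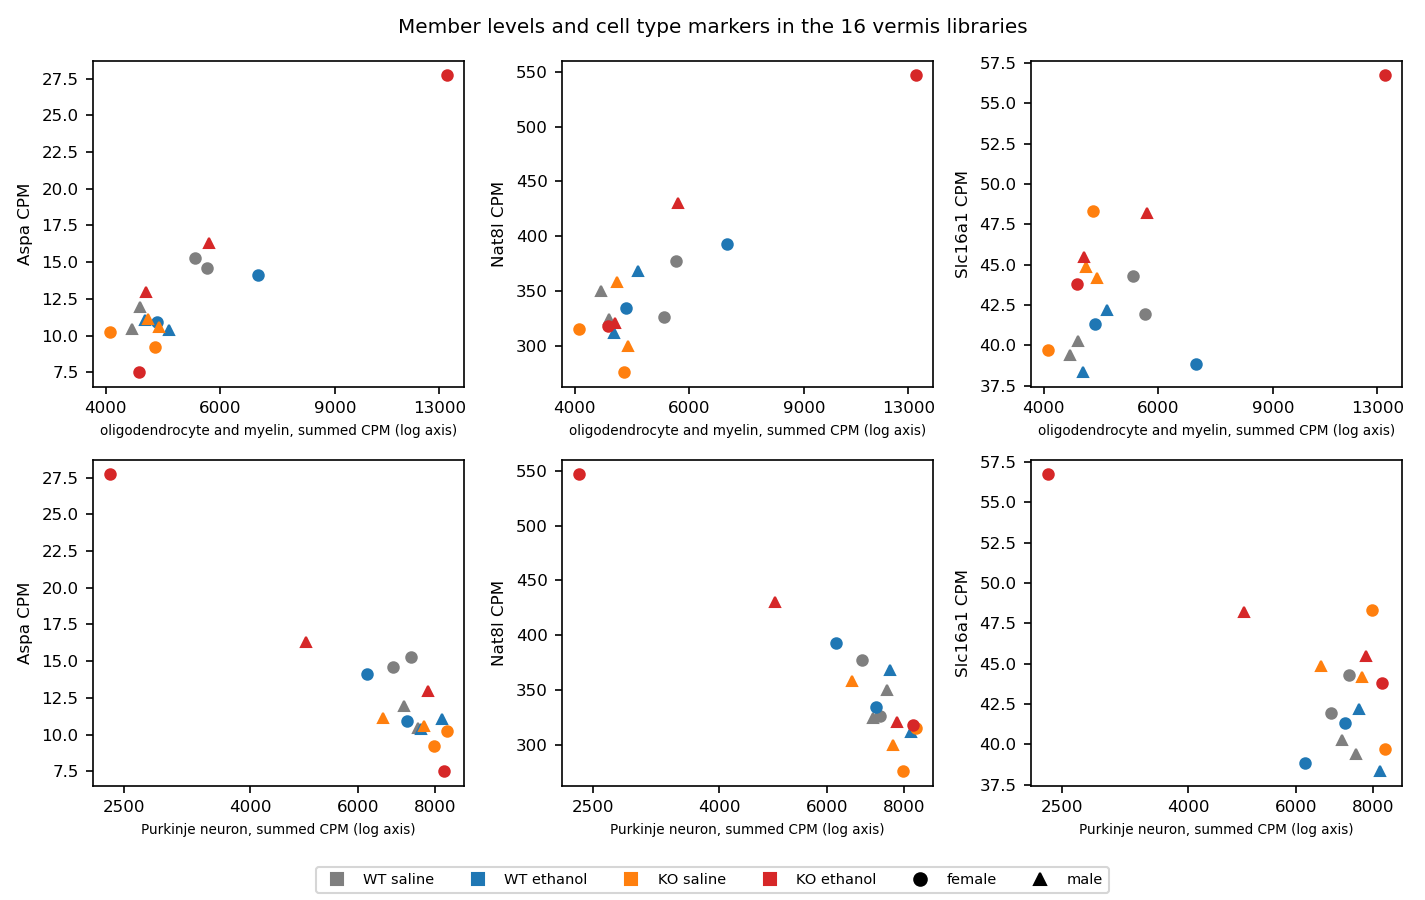
CPM of Aspa, Nat8l and Slc16a1 (y axes) against summed CPM of oligodendrocyte and myelin markers (top, log axis) and of Purkinje neuron markers (bottom, log axis) in the 16 vermis libraries, coloured by mouse group, with circles for females and triangles for males. Ethanol-exposed KO F1 lies at 13370 CPM of myelin and 2370 CPM of Purkinje markers, apart from the other libraries, and holds the highest level of all 3 genes. For Slc16a1 r (log2 values) was 0.656 with myelin and −0.725 with Purkinje markers. Without F1 and M3 of ethanol-exposed KO these were −0.08 and 0.137, so the Slc16a1 relations shown rest on those libraries.

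The genes whose log2 CPM across 16 libraries was most like that of each member, among those of at least 5 CPM on average, were for Aspa in hippocampus Ermn (r = 0.947), Erbin (0.946) and Rffl (0.937). For Slc16a7 in hippocampus they were Zmym2 (0.953), Mir124a-1hg (0.948) and Ccnt2 (0.939), and for Rimkla Pakap (0.924), Itih5 (0.915) and Ptpn4 (0.908). In vermis Nat8l was most like Tpgs2 (0.977, and 0.938 over the 14 libraries without F1 and M3 of ethanol-exposed KO), Rimkla most like Ache (0.961 and 0.93), Aspa most like Kif21a (0.941 and 0.866) and Slc16a1 most like Ifi27 (0.925 and 0.811). The closest for the remaining members there were Lamb2 for Slc13a3 (0.866 and 0.853), Bicc1 for Rimklb (0.845 and 0.78), Anln for Folh1 (0.893 and 0.796) and Tlcd4 for Slc16a7 (0.908 and 0.74). In each case these are the highest of 11645 genes in hippocampus and 11529 in vermis and carry no test.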

How the data were processed

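Deposited raw counts per gene and per transcript model, in which reads that overlap several models add to each (per the file), were used for 32 polyA libraries made from 10 ng total RNA each. Per the submitters' processing notes the authors used STAR 2.7.10a on GRCm39, featureCounts 2.0.6, cutadapt 5.0, DESeq2 and bcl2fastq. Strand handling is not given in the sources used here. Of low counts (1 to 20) 85.1% to 91.6% were even, as when both mates of a pair are counted, so totals may hold fragments 2 times.

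Counts were fitted with edgeR 4.0.16 and limma 3.58.1 in R 4.3.3 (filterByExpr, TMM, robust quasi-likelihood F-test, sex as covariate), each region's 16 libraries together (23394 genes in hippocampus, 22441 in vermis) and, for regional comparisons, all 32 with mouse as a block (24458 genes). These are 17 comparisons, not independent where libraries are shared. The Benjamini-Hochberg threshold was 0.05 over all genes tested. Levels are CPM over TMM-scaled library sizes, and 1 CPM was 23.6 counts in the shallowest library. Correlations used log2 CPM with a pseudocount of 0.1 and 100000 permutations (Python 3.11.15, SciPy 1.17.1). The fit was tested on simulated counts. The 48 library pairs within groups were checked for copies, and the smallest chi-square per degree of freedom was 8.41.

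The members and lists were chosen with earlier results of these data known. The rule for named genes took all 8 members, pathway genes that passed, and the 3 genes most like each member, not all of which are printed. Alternatives were DESeq2 1.42.0 and its size factors, fits without the sex term or without the low-count filter, fits of the 2 compared groups alone, replicate labels as a block, and each library left out. Leaving out 2 vermis libraries and the protein-coding length were chosen after seeing the data, as were the alternatives for pathway genes. Replicate labels were checked for pairing: the same label in another group of a region gave correlations from −0.32 to 0.437. Of these pairs, 10 of 24 in hippocampus and 11 of 24 in vermis were over 0.1. The highest value for the 2 libraries of a mouse, given next, was lower. The check therefore cannot tell whether labels share more than a number across groups. The 2 regions were paired by the mouse ID in the labels; deviations from group means correlated between the 2 libraries of a mouse with r from −0.012 to 0.225, over 0.1 in 6 of 16 mice.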

Additional observations from a re-analysis of the deposited data

Results flagged for a closer look

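Among 64 sets of 4 libraries (8 members in 8 groups), 2 held a library far from the other 3, with a gap to the nearest above the 95% critical value of Dixon's test; chance marks about 1 set in 20. Rimkla, a NAAG synthetase, was at 21.75 CPM in saline-exposed KO hippocampus F1 and at 12.66 to 13.44 CPM in the other 3 libraries of that group. Slc13a3 was at 26.07 CPM in ethanol-exposed WT vermis M3 and at 21.85 to 22.29 CPM in the other 3.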

How the results depend on the processing

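The values below are member counts or log2 differences, and a range gives the lowest and highest value with 1 library left out. Of 2936 member log2 differences recomputed, 2770 kept their side of the threshold and their direction. The 135 that changed sign were below the threshold in both settings. With no low-count filter 1 member passed in each of the hippocampal comparisons of exposure in KO (Aspa 0.35), genotype in saline (Aspa −0.36), genotype in ethanol (Slc16a1 0.32) and the interaction (Aspa 0.46); the cause was not tested. With only the 2 groups compared, 0 members passed for genotype in ethanol-exposed vermis. Without ethanol-exposed KO vermis F1 and M3, 0 passed there, and the differences were −0.12 for Nat8l, −0.15 for Aspa and −0.23 for Rimkla, with −0.12 for Rimklb for exposure in KO vermis and −0.025 for Folh1 between the regions. Counts ranged from 0 to 2 for exposure in KO vermis, 0 to 1 for genotype in saline-exposed vermis and 0 to 4 for genotype in ethanol-exposed vermis.

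For exposure in WT hippocampus the ranges were −0.094 to 0.027 (Nat8l), −0.23 to 0.0061 (Aspa), −0.0063 to 0.17 (Slc13a3), −0.14 to 0.0057 (Folh1) and −0.13 to 0.019 (Rimkla), and in KO hippocampus −0.065 to 0.014 (Nat8l), −0.27 to 0.034 (Rimkla) and −0.083 to 0.13 (Slc16a1). For genotype in hippocampus they were −0.31 to 0.020 (Folh1) and −0.18 to 0.12 (Rimkla) in saline, and −0.11 to 0.29 (Aspa), −0.018 to 0.071 (Rimklb) and −0.15 to 0.0070 (Slc16a7) in ethanol. In vermis they were −0.019 to 0.079 (Nat8l), −0.016 to 0.14 (Folh1) and −0.22 to 0.065 (Rimkla) for exposure in WT, −0.054 to 0.079 (Rimklb) for exposure in KO and −0.11 to 0.29 (Rimkla) for genotype in ethanol. Between the regions Folh1 ran from −0.0052 to 0.075, and the regional difference of the genotype effect on Slc16a1 in ethanol from −0.092 to 0.0020.

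With the replicate label as a block the member counts were those of the main result in each comparison (Slc13a3 0.31, adjusted p = 0.0218, and Slc16a1 0.29, adjusted p = 0.0243, in edgeR), and without the mouse block 7 members differed between regions. The same label correlated best with itself for 5 hippocampal and 7 vermis libraries of 16.

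Counts over all genes moved more. In hippocampus, in the order exposure in WT, exposure in KO, genotype in saline, genotype in ethanol and interaction, edgeR called 0, 12, 1, 40 and 41 genes, DESeq2 129, 111, 186, 227 and 263, and edgeR with no low-count filter 608, 928, 633, 430 and 688. For sex there it was 18, 53 and 596. In vermis edgeR called 1, 20, 1690 and 24 for exposure in WT, exposure in KO, genotype in ethanol and interaction, and DESeq2 17, 190, 2921 and 224; with no filter the first 2 and the last were 4, 52 and 53. Only the groups compared gave 0, 2 and 8 in hippocampus (exposure in KO, genotype) and 5, 1 and 693 in vermis. No sex term gave 23 and 41 for the interactions and 0 for exposure in WT vermis. The block gave 0, 7 and 6 in vermis (exposure in WT, in KO, interaction). Without F1 and M3 the vermis counts were 4, 13 and 874, and 289 in place of 585 (DESeq2 1070) for the regional difference of genotype in ethanol; that of exposure in KO was 1, 15 by DESeq2 and 0 otherwise. With 1 library left out, hippocampal counts ran from 0 to 21, 0 to 19, 1 to 92, 6 to 45 and 0 to 24 in the order above; those for exposure in WT, genotype in saline and interaction were highest without saline-exposed WT M1. In vermis exposure in WT ran from 0 to 2, exposure in KO from 2 to 616, genotype in ethanol from 973 to 5092 and the interaction from 3 to 168, the last 3 highest without ethanol-exposed KO F3, the shallowest library. The regional difference of genotype in ethanol ran from 358 to 822 and that of exposure in KO from 0 to 2, both highest without that mouse.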
